A study of Homo sapiens with 54 samples.

Results

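This account covers 36 genes of homologous recombination, the Fanconi anaemia pathway and the replication checkpoint, taken by name from the 27978 genes of a count table made from MDA-MB-231 cells. The list was drawn up by gene function and not by measured values, although earlier results of these data were known when it was chosen. MDA-MB-231 is an established human line from a triple-negative breast cancer, bought from ATCC and grown in DMEM with 10% fetal bovine serum. Its RNA was selected with oligo(dT), and strand-specific libraries were sequenced as paired reads. Compound Kushen Injection (CKI) is an extract of medicinal plants, and every treatment was given at the equivalent of 2 mg/ml CKI. At 24 h and, in batch 1, at 48 h, 6 groups of 3 libraries held untreated cells, cells with CKI, cells with oxymatrine and oxysophocarpine only (OmtOspc), the same pair with macrozamin added (MacOmtOspc), CKI from which the pair had been removed (N-OmtOspc), and CKI from which all 3 had been removed (N-MacOmtOspc). In batch 2 at 48 h the 6 groups were untreated cells, CKI, and CKI lacking macrozamin (N-Mac), N-methylcytisine (N-Nme), oxymatrine (N-Omt) or trifolirhizin (N-Tri). All 54 libraries come from this 1 line, so the spread between replicates is that of cultures of 1 line, and the labels do not say how the replicate cultures were separated.

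Homologous recombination repairs a broken chromosome by copying the intact sister, and it is therefore mostly used in S and G2 phase. The MRN complex with RBBP8, EXO1 and DNA2 trims the broken ends, BRCA1 and its partners guide BRCA2 and PALB2 to the trimmed strand, where a protein filament forms that searches for the sister. RAD51C, RAD51D, XRCC2, XRCC3, RAD54L and RAD51AP1 assist the search and the exchange of strands, and BLM with RMI1 and RMI2 takes the joined molecules apart. The Fanconi pathway serves crosslinks between the DNA strands: a core complex with the ligase FANCL and the conjugating enzyme UBE2T marks FANCD2 and FANCI, which then direct the cutting and the recombination. Many of these genes are known to be transcribed mainly in proliferating cells.

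The stretches just before the starts of 4 members are shown because these genes stand at the ends of the range described here: RAD51AP1, BRIP1 and CLSPN were among the members with the steepest falls and FANCM was the member called higher most often. The 120 bases lie upstream of the start in RefSeq's GRCh38.p14 annotation and overlap no exon of GENCODE 29. Capitals mark the letters TTCCCGC, the variant TTCGCGC, the variant TTGCCGC or the variant TTGGCGC, together a form of the E2F motif, and CCAAT, each on either strand. They read, 5′ to 3′ on the strand of the gene, as follows.
RAD51AP1, chr12:4538770-4538889, plus strand: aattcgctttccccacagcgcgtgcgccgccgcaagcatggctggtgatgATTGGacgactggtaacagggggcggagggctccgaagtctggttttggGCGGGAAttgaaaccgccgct
BRIP1, chr17:61863529-61863648, minus strand: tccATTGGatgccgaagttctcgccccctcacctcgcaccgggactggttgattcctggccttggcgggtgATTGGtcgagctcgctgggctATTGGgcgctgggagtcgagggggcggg
CLSPN, chr1:35769979-35770098, minus strand: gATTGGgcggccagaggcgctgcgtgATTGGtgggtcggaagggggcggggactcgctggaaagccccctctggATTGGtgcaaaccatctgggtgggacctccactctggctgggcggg
FANCM, chr14:45135810-45135929, plus strand: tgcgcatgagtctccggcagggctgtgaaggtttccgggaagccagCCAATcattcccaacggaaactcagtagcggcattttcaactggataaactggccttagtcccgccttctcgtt
RAD51AP1 held 1 E2F match, which began 21 bases before the start, and 1 CCAAT, BRIP1 and CLSPN held 3 CCAAT each and no E2F match, and FANCM held 1 CCAAT and no E2F match.

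The same letters were looked for in the 250 bases before every start in the RefSeq table, in which 31 of the 36 members had an entry, with 44 windows between them. The E2F letters were in 36.4% of the members' windows and in 10.9% of all 35116 windows. A stricter form with 1 more T in front was searched first and was in 6.82% of the members' windows and 2.79% of all, which is 3 of the 31 members, and the shorter form was taken up after that result was seen, so the higher share depends on the form chosen. CCAAT stood in 40.9% of the members' windows and 32% of all, and the letters TTTGAA or the variant TTCGAA, a form of the CHR element of cell cycle genes, in 9.09% and 14.3%. A CCAAT on the opposite strand can share its last letters with an E2F match. The windows were not matched for base composition. The 12 members with the shorter E2F letters had a median log2 fold change of -1.96 in N-Omt cells, with a range from -4.97 to -0.25, and the 19 without had a median of -1.55, with a range from -4.77 to 0.06, so the ranges overlapped over most of their length. With the stricter form the order turned: the median was -1.09 for the 3 members with it and -1.84 for the 28 without. For CCAAT the median was -2.03 for the 15 members with it and -1.61 for the 16 without. For the CHR letters it was -2.79 for 4 and -1.55 for 27, and the ranges overlapped in both splits. EXO1 and XRCC2, at -4.42 and -4.21 in N-Omt cells, held none of these letters.

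Library totals lay between 17673537 and 26138924 counts. All 36 members passed the filter on low counts, among 15191 genes tested at 24 h and 15872 at 48 h. The lowest count of any member in any library was 7, and 33 members had at least 10 counts in every library. Fold changes are log2 ratios from edgeR's quasi-likelihood fit. The standard error (SE) was derived from the fold change and the F statistic of its test, and is approximate. A gene was called at a Benjamini-Hochberg adjusted p below 0.05 over all genes tested. Levels are given as CPM, the counts scaled to the size of the library after TMM scaling, and are compared between groups and not between genes. The spread between replicates was wider at 24 h, with a biological coefficient of variation of 0.175, than at 48 h, where it was 0.0642. At 24 h, 3 libraries stood apart from the rest of their groups: CKI replicate 1, OmtOspc replicate 2 and N-MacOmtOspc replicate 2. Their titles, unlike those of the other treated libraries at 24 h, carry no number between the treatment code and the replicate label. Over 585 genes that differ by more than 2-fold between the untreated cells of the batches at 48 h, these 3 deviated from their groups in the direction of batch 2 with slopes of 0.58 to 0.652, while the other 33 libraries of batch 1 had slopes of -0.408 to 0.103. Over the members, N-MacOmtOspc replicate 2 lay above its group by a median of 0.73 on the log2 scale, OmtOspc replicate 2 by 0.25 and CKI replicate 1 by 0.01. Counts called at 24 h over all 36 members are therefore also given without these 3 libraries. Not repeated are those of N-OmtOspc against untreated cells or CKI, which moved by 1, and of MacOmtOspc against OmtOspc, which stayed at 0. Counts by role group and of other gene lists at 24 h include the 3 libraries.

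The markers of the line were present, with VIM between 489 and 1570 CPM and CD44 between 328 and 669 CPM over all libraries. ESR1 and PGR, which define luminal breast cells, did not pass 0.334 and 0.0923 CPM. FOXA1, also luminal, reached at most 2.82 CPM and GATA3 lay between 5.18 and 45.6 CPM. Of the 7 fibroblast markers THY1 and DCN stayed below 1 CPM, COL3A1 and LUM reached 4.86 and 6.73 CPM, PDGFRB 16.4 CPM, COL1A2 44.6 CPM and COL1A1 65.2 CPM. Of the 4 colon markers CDX1, VIL1 and CDH17 stayed below 1 CPM and EPCAM lay between 6.19 and 27.7 CPM. The sum of the 5 MDA-MB-231 markers was 4370 to 4460 CPM in untreated cells and 2730 to 2750 CPM with CKI at 24 h, and it was 1850 to 1940 CPM with N-OmtOspc at 48 h against 3920 to 4000 CPM. The luminal sum was 33.4 to 34.6 CPM untreated and 10.3 to 17 CPM with CKI at 24 h, but 45 to 46.4 CPM with N-OmtOspc. The fibroblast sum was 58.1 to 65.6 CPM, 27.7 to 51.4 CPM and 66.8 to 99.7 CPM in the same 3 groups. The colon sum was 15.8 to 18.5 CPM untreated and 7.43 to 9 CPM with CKI at 24 h, and with N-Omt 24.9 to 27.3 CPM against 20.5 to 22.2 CPM. The luminal, fibroblast and colon sums thus moved in both directions among groups with falls of the members. The MDA-MB-231 sum was lower in every treated group than in untreated cells of its time and batch. The part of these markers in the results below was not tested.

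Many of these repair genes had a modestly lower message level with CKI. At 24 h, 16 of the 36 members were called lower and 1 higher than in untreated cells, where 14.8% of all genes tested were lower and 15.3% higher. The median log2 fold change of the members was -0.5 and that of all genes 0.02, and 35 of the 36 had a fold change below 0. At 48 h, with the mean of both batches, 28 were lower and 1 higher against 35.7% and 33% of all genes, with a member median of -0.3 and an all-gene median of -0.01. In batch 1 alone 18 were lower and 1 higher (30.4% and 27.2% of all genes, member median -0.17), and in batch 2 alone 29 were lower and 1 higher (31.6% and 28.1%, member median -0.4). No member reached a 2-fold fall in the mean of the batches at 48 h, and 1, RAD51AP1, did so at 24 h. In bulk RNA, fewer cells that carry a message and less of the message per cell cannot be told apart. The count at 24 h depended on single libraries: it was 7 without untreated replicate 1, at most 13 without any other library of these 2 groups, and 19 without the 3 libraries that stood apart. Those 19 were all lower, where 2502 of all genes were lower and 2537 higher, against 2242 and 2320 in the main fit. In the 6 fits that leave out 1 library, RAD51AP1 and FANCF kept their calls at 24 h, PALB2 and CHEK1 lost theirs in 2 and FANCM in 4.

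**Figure D1:**
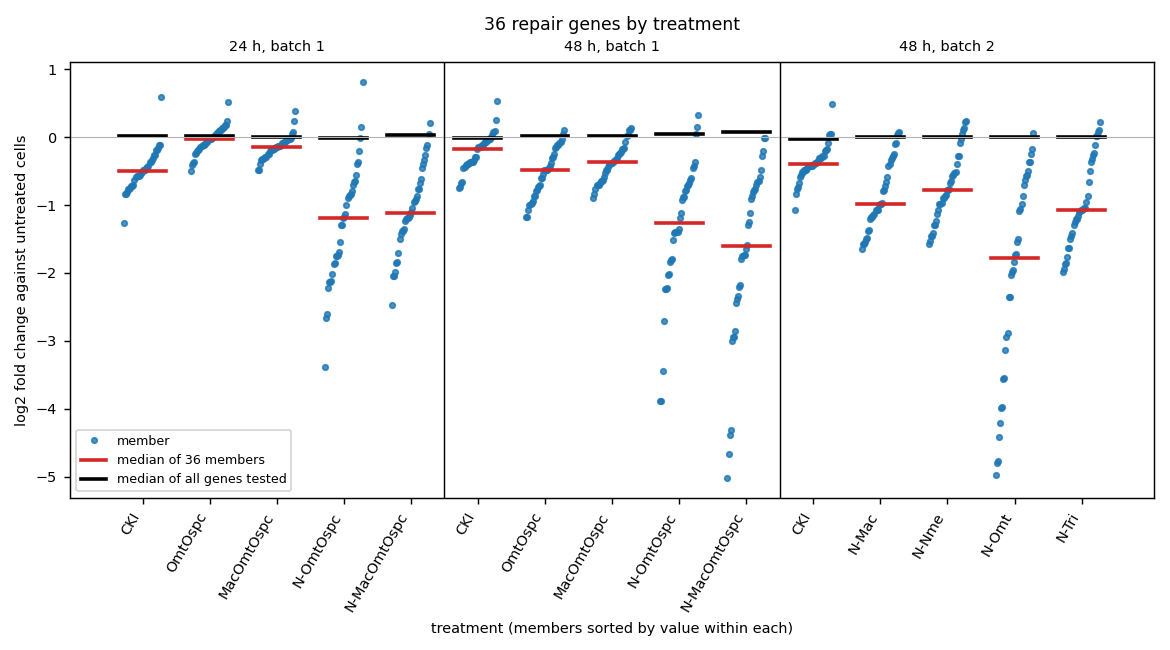
Each blue point is 1 of the 36 members, sorted by value within a treatment. The vertical axis is the log2 fold change against untreated cells of the same time and batch, the red line is the members' median and the black line the median of all genes tested. The members' median was -0.5 with CKI at 24 h and -1.78 with N-Omt, while the black lines stay near 0.

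The BRCA1 complex and the genes grouped with it held the largest fall with CKI. RAD51AP1, which helps to pair strands, stood at 29.2, 29.0 and 28.1 CPM in untreated cells at 24 h and at 12.0, 11.8 and 11.9 CPM with CKI. The groups were far apart and the log2 fold change was -1.27 (SE 0.24, adjusted p = 0.00078). In batch 1 at 48 h it was at 28.7, 28.6 and 26.8 CPM untreated and 17.9, 17.2 and 16.3 CPM with CKI, and in batch 2 at 25.8, 27.1 and 23.9 CPM against 14.2, 15.6 and 13.6 CPM. No library overlapped in either batch, and the fold change at 48 h was -0.78 (SE 0.076, adjusted p = 1.3e-11). The steepest falls of the member came with mixtures: the 3 N-MacOmtOspc libraries at 48 h held 0.991, 0.372 and 1.09 CPM and the N-Omt libraries 0.894, 0.667 and 0.909 CPM. These are log2 fold changes of -5.02 (SE 0.17) and -4.97 (SE 0.17), about 3.09% and 3.19% of the untreated level.

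BRCA2, a mediator of strand exchange, had 9.6, 11.7 and 12.6 CPM in untreated cells at 24 h and 6.61, 7.13 and 6.22 CPM with CKI. The groups did not overlap, but the fold change of -0.76 (SE 0.32) did not pass the test at 24 h (adjusted p = 0.086). At 48 h BRCA2 fell, by -0.7 (SE 0.098, adjusted p = 5.3e-08), from 15.0, 10.7 and 10.6 CPM to 6.68, 8.74 and 7.88 CPM in batch 1 and from 15.6, 16.1 and 15.9 CPM to 9.14, 9.01 and 10.5 CPM in batch 2. Its largest change came with N-Omt, at 4.26, 5.5 and 4.7 CPM (log2 fold change -1.73, SE 0.15).

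BRCA1, the scaffold of its complex, had its largest falls with mixtures that lack oxymatrine. At 24 h its untreated libraries held 21.5, 22.9 and 25.2 CPM and the CKI libraries 16.1, 17.0 and 13.8 CPM, a difference that did not pass the test (adjusted p = 0.17). At 48 h the fall with CKI was -0.24 (SE 0.056, adjusted p = 0.00019). N-OmtOspc libraries at 24 h were at 5.18, 3.91 and 1.78 CPM (log2 fold change -2.67, SE 0.34), below every untreated library. N-Omt libraries at 48 h were at 1.74, 2.13 and 1.57 CPM against 28.3, 29.7 and 27.7 CPM untreated, a fall of -3.98 (SE 0.11) to 6.36% of the untreated level. BRIP1, a helicase that binds BRCA1, followed with 0.681, 1.13 and 1.16 CPM in N-Omt libraries against 26.9, 30.0 and 23.0 CPM (-4.77, SE 0.17). BARD1, the partner of BRCA1 in its ligase, was called lower in 12 of the 15 comparisons with untreated cells, as were BRCA1 and BRIP1.

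PALB2, which joins BRCA1 to BRCA2, moved the other way in 1 treatment. It fell with CKI from 13.9, 13.0 and 12.9 CPM to 9.72, 8.79 and 9.9 CPM at 24 h (-0.49, SE 0.14, adjusted p = 0.013). At 48 h the fall was -0.39 (SE 0.063, adjusted p = 7.2e-07). With N-Nme it was higher, at 16.7, 18.5 and 17.8 CPM against 14.9, 14.5 and 15.2 CPM untreated (0.22, SE 0.083, adjusted p = 0.017), and the call held under both other scalings and in DESeq2. Of the 6 members of this group, 2 were called lower with CKI at 24 h and 6 at 48 h, against 14.8% and 35.7% of all genes.

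**Figure D2:**
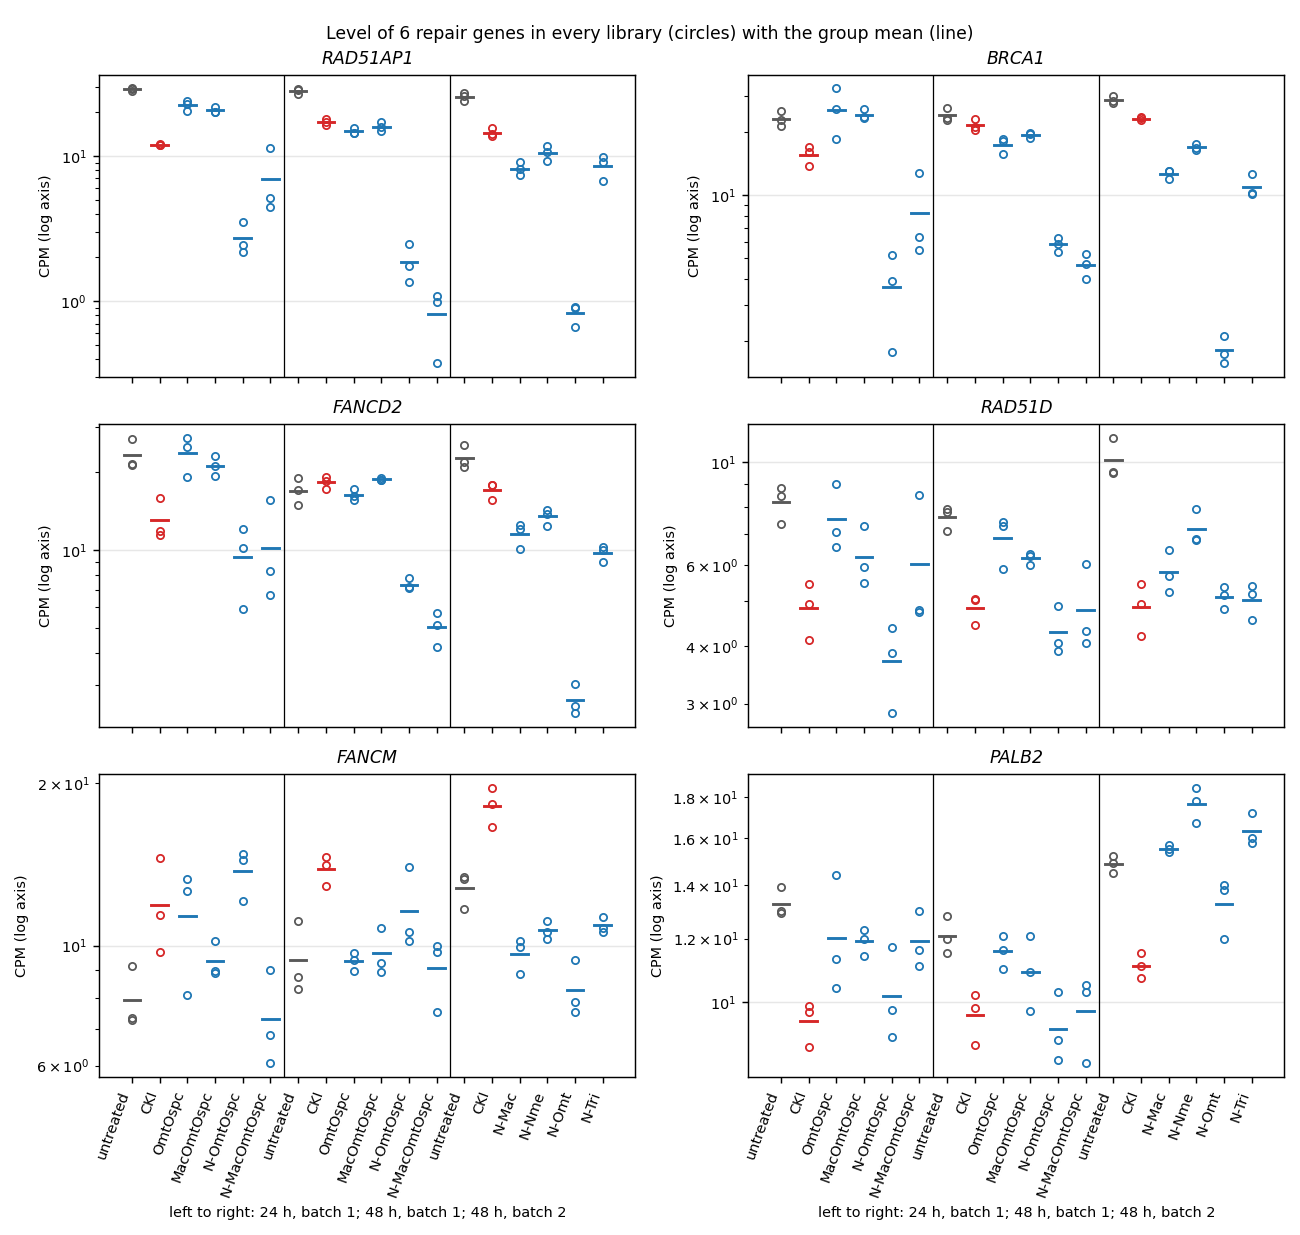
Circles are single libraries and lines group means, in CPM on a log axis, for RAD51AP1, BRCA1, FANCD2, RAD51D, FANCM and PALB2; grey marks untreated cells, red CKI and blue the mixtures. RAD51AP1 drops below 1.1 CPM in the N-MacOmtOspc libraries at 48 h and the N-Omt libraries, while PALB2 stays between about 8.4 and 18.5 CPM.

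Among RAD51C, RAD51D, XRCC2, XRCC3 and the RAD54 family, RAD51D fell most with CKI. This gene, whose product acts in a complex with XRCC2, went from 8.47, 7.37 and 8.81 CPM to 5.44, 4.12 and 4.92 CPM at 24 h (-0.76, SE 0.23, adjusted p = 0.018), a call lost in 3 of 6 fits that leave out 1 library. At 48 h the values were 7.11, 7.92 and 7.8 CPM against 5.03, 4.44 and 5.05 CPM in batch 1 and 11.3, 9.51 and 9.52 CPM against 4.94, 4.21 and 5.44 CPM in batch 2 (-0.87, SE 0.091, adjusted p = 6.6e-11). No CKI library overlapped the untreated ones. Its lowest fold change over all treatments was -1.13 (SE 0.24), with N-OmtOspc at 24 h.

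RAD54L, the motor protein that drives strand exchange, showed the opposite balance. It went from 31.3, 29.7 and 30.4 CPM to 18.4, 21.0 and 16.3 CPM with CKI at 24 h (-0.71, SE 0.26, adjusted p = 0.0495), a call lost without any 1 of the 6 libraries. At 48 h it fell by -0.35 (SE 0.068, adjusted p = 2.2e-05). With N-Omt it reached 1.91, 2.0 and 1.77 CPM against 29.8, 33.4 and 27.1 CPM untreated, a fall of -3.99 (SE 0.14). XRCC2 did not pass the test with CKI at either time (0.05, SE 0.092 at 48 h), yet it was at 0.383, 0.876 and 0.657 CPM with N-Omt against 12.4, 12.5 and 10.6 CPM (-4.21, SE 0.21). RAD51C was not called with CKI at either time, and its lowest value was -0.84, with N-OmtOspc at 24 h. In this group of 6, 3 were called lower with CKI at 24 h and 4 at 48 h, against 14.8% and 35.7% of all genes. All 6 were lower with N-OmtOspc at both times, N-MacOmtOspc at 48 h, N-Mac, N-Omt and N-Tri. Of all genes, 30.9% to 38.1% were lower in these comparisons.

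Of the 10 genes of the Fanconi core and ID complex, the largest group, 7 were called lower and 1 higher with CKI at 24 h and 9 lower and 1 higher at 48 h, against 14.8% and 15.3% of all genes at 24 h and 35.7% and 33% at 48 h. FANCL, the ligase, went from 8.47, 7.72 and 9.55 CPM to 4.99, 6.37 and 5.19 CPM at 24 h (-0.63, SE 0.19, adjusted p = 0.021), a call lost in 4 of the 6 fits that leave out 1 library, and fell by -0.76 (SE 0.1, adjusted p = 2e-08) at 48 h. In batch 1 at 48 h the untreated libraries held 8.24, 7.26 and 7.01 CPM and the CKI libraries 4.61, 4.59 and 4.38 CPM. FANCC and FANCG, both subunits of the core, were called lower in 14 of the 15 comparisons of a treated group with untreated cells of its time and batch, more than any other member, and the exception for each was MacOmtOspc at 24 h. Their falls were moderate, with lowest values of -1.2 and -1.95.

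FANCF, the adaptor of the core, was called lower with CKI at both times and with few mixtures. It went from 12.1, 10.9 and 11.0 CPM to 5.76, 7.56 and 6.87 CPM with CKI at 24 h (-0.75, SE 0.12, adjusted p = 0.00028). At 48 h the fall was -0.52 (SE 0.065, adjusted p = 5.8e-09), from 10.5, 11.1 and 9.44 CPM to 8.38, 8.34 and 7.76 CPM in batch 1 and from 9.29, 9.73 and 10.0 CPM to 6.4, 6.06 and 5.9 CPM in batch 2. N-OmtOspc libraries at 24 h were at 11.5, 11.7 and 13.7 CPM, above every CKI library. The difference of N-OmtOspc from CKI was 0.9 (SE 0.12) at 24 h and 0.51 (SE 0.089) at 48 h, and that of N-Nme from CKI was 0.72 (SE 0.094), all called. Against untreated cells FANCF fell in 2 mixtures, OmtOspc at 24 h (-0.41) and N-Omt, which held 7.36, 5.96 and 6.42 CPM (-0.57, SE 0.093). With library sizes alone it was called lower in 4 comparisons and higher in 1.

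FANCM, the helicase that finds stalled forks and anchors the core complex, was the member called higher with CKI. At 24 h it was at 7.35, 7.29 and 9.18 CPM untreated and 14.5, 11.4 and 9.74 CPM with CKI (0.59, SE 0.2, adjusted p = 0.038), and this call is lost without the 3 libraries that stood apart, where the difference was 0.41 (adjusted p = 0.0963). At 48 h it rose by 0.52 (SE 0.077, adjusted p = 2.2e-07), from 11.1, 8.75 and 8.33 CPM to 12.9, 14.1 and 14.6 CPM in batch 1 and from 11.7, 13.3 and 13.4 CPM to 19.6, 18.3 and 16.6 CPM in batch 2. It was higher also with N-OmtOspc at 24 h (0.81, SE 0.2), which is not called when libraries are scaled by size alone (0.5), and at 48 h (0.32). In batch 2 the 4 removals were called lower, with N-Omt at 7.53, 9.42 and 7.88 CPM (-0.63, SE 0.12). Over the 15 comparisons it was called higher in 5 and lower in 4, with DESeq2 higher in 5 and lower in 3, and with library sizes alone higher in 4 and lower in 2.

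FANCD2, which carries the mark together with FANCI, was at 21.5, 21.3 and 26.8 CPM untreated and 15.9, 11.8 and 11.4 CPM with CKI at 24 h (-0.83, SE 0.28, adjusted p = 0.032), a call lost in 5 of the 6 fits that leave out 1 library of these groups. At 48 h its fall with CKI was -0.17 (SE 0.067, adjusted p = 0.025). With N-Omt it was at 2.34, 2.5 and 3.03 CPM against 21.8, 25.5 and 21.0 CPM (-3.13, SE 0.12). FANCI, its partner, fell by -2.95 (SE 0.086) with N-Omt. FANCA, FANCE and UBE2T were called lower in 11, 13 and 11 of the comparisons.

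Of the 5 break sensing and end resection genes, 2 were called lower with CKI at 24 h and 3 at 48 h (14.8% and 35.7% of all genes). EXO1, the nuclease of long resection, was not called with CKI at 24 h, with 21.9, 25.2 and 25.2 CPM untreated and 15.2, 17.5 and 19.3 CPM with CKI (-0.48, SE 0.37, adjusted p = 0.35). At 48 h it fell by -0.28 (SE 0.064, adjusted p = 0.00023). In N-MacOmtOspc libraries at 48 h it was at 1.13, 1.06 and 1.18 CPM against 22.3, 23.5 and 23.2 CPM (-4.32), and in N-Omt libraries at 0.979, 1.08 and 1.52 CPM against 26.2, 27.7 and 21.2 CPM (-4.42, SE 0.14). NBN, the sensor of the MRN complex, went from 57.9, 58.9 and 55.8 CPM to 40.0, 37.2 and 39.2 CPM with CKI at 24 h (-0.57, SE 0.17, adjusted p = 0.018), a call lost in 3 of 6 fits that leave out 1 library, and fell by -0.33 (SE 0.044, adjusted p = 2.7e-08) at 48 h. Its lowest values came with N-OmtOspc at 24 h, at 19.3, 16.2 and 14.9 CPM (-1.75, SE 0.18).

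RAD50, the long coiled-coil subunit of the complex, was called lower in 5 of the 15 comparisons and higher in 1. It was not called with CKI at 24 h and fell at 48 h (-0.43, SE 0.049, adjusted p = 4.9e-10), from 57.7, 47.3 and 48.3 CPM to 38.1, 38.8 and 37.3 CPM in batch 1. With N-Nme it was higher, at 65.4, 71.3 and 76.2 CPM against 61.7, 57.5 and 58.4 CPM (0.24, SE 0.067, adjusted p = 0.00199). That call held in every scaling tried, and scaling by library size alone called RAD50 higher in 2 more comparisons, OmtOspc and MacOmtOspc at 48 h. RBBP8 was called lower in 6 of the 15 comparisons and DNA2 in 11.

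BLM, the helicase of the dissolving complex, showed the widest gap between CKI and a mixture. At 24 h it was at 10.4, 10.6 and 10.2 CPM untreated and 7.92, 7.73 and 7.31 CPM with CKI, which did not pass (-0.44, SE 0.31, adjusted p = 0.3), and at 48 h it fell by -0.32 (SE 0.071, adjusted p = 0.00014). With N-Omt it was at 0.468, 0.375 and 0.556 CPM against 13.4, 13.4 and 11.9 CPM untreated (-4.8, SE 0.16), and its difference from CKI was -4.32 (SE 0.17). RMI2, a small partner of BLM, fell with CKI at 24 h, from 18.0, 20.2 and 16.9 CPM to 9.76, 14.4 and 14.3 CPM (-0.52, SE 0.16, adjusted p = 0.022), a call lost in 3 of 6 fits that leave out 1 library. At 48 h it was not called (0.06, SE 0.069), and the difference between the times was not called either. In N-MacOmtOspc libraries at 48 h it was at 3.96, 3.35 and 3.27 CPM (-2.18, SE 0.12). The endonuclease subunit EME1 was called lower in 6 comparisons and RMI1 in 11.

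Of the other repair routes, POLQ, the polymerase of end joining through short repeats, was not called with CKI at 24 h or in the mean of the batches at 48 h, although it was called lower in batch 2 alone. At 24 h it was at 8.08, 7.89 and 9.59 CPM untreated and 8.28, 5.69 and 6.76 CPM with CKI. With N-Omt it was at 0.851, 0.792 and 0.909 CPM against 9.92, 9.94 and 9.94 CPM (-3.55, SE 0.2). MSH6, which recognises mismatches, was not called with CKI at 24 h and fell by -0.16 (SE 0.049, adjusted p = 0.0053) at 48 h. It was lowest with OmtOspc at 48 h, at 52.1, 54.2 and 56.1 CPM against 107, 102 and 107 CPM (-0.98, SE 0.072), where most other members changed less.

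In the replication checkpoint, CHEK1, the effector kinase, fell with CKI from 63.0, 71.4 and 64.4 CPM to 44.9, 48.1 and 51.6 CPM at 24 h (-0.46, SE 0.13, adjusted p = 0.017) and by -0.43 (SE 0.042, adjusted p = 9.6e-12) at 48 h. It was called lower in 13 of the 15 comparisons. CLSPN, the claspin adaptor that hands the signal from ATR to CHEK1, did not pass with CKI at 24 h (-0.37, SE 0.45, adjusted p = 0.58) and fell by -0.33 (SE 0.056, adjusted p = 2.1e-06) at 48 h. In N-MacOmtOspc cells it was at 5.03, 31.1 and 5.45 CPM at 24 h, where the high value is the library that stood apart, and at 2.39, 2.45 and 2.44 CPM at 48 h against 54.4, 47.6 and 52.7 CPM untreated (-4.38, SE 0.12). ATR, the upstream kinase, fell with CKI at 48 h (-0.43, SE 0.054, adjusted p = 5.5e-09) and was higher with N-Tri, at 33.2, 33.3 and 34.1 CPM against 28.0, 28.1 and 28.0 CPM (0.22, SE 0.073, adjusted p = 0.00682). It was lower in 7 of the 15 comparisons and higher in 1, and with library sizes alone lower in 5 and higher in 2.

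**Figure D3:**
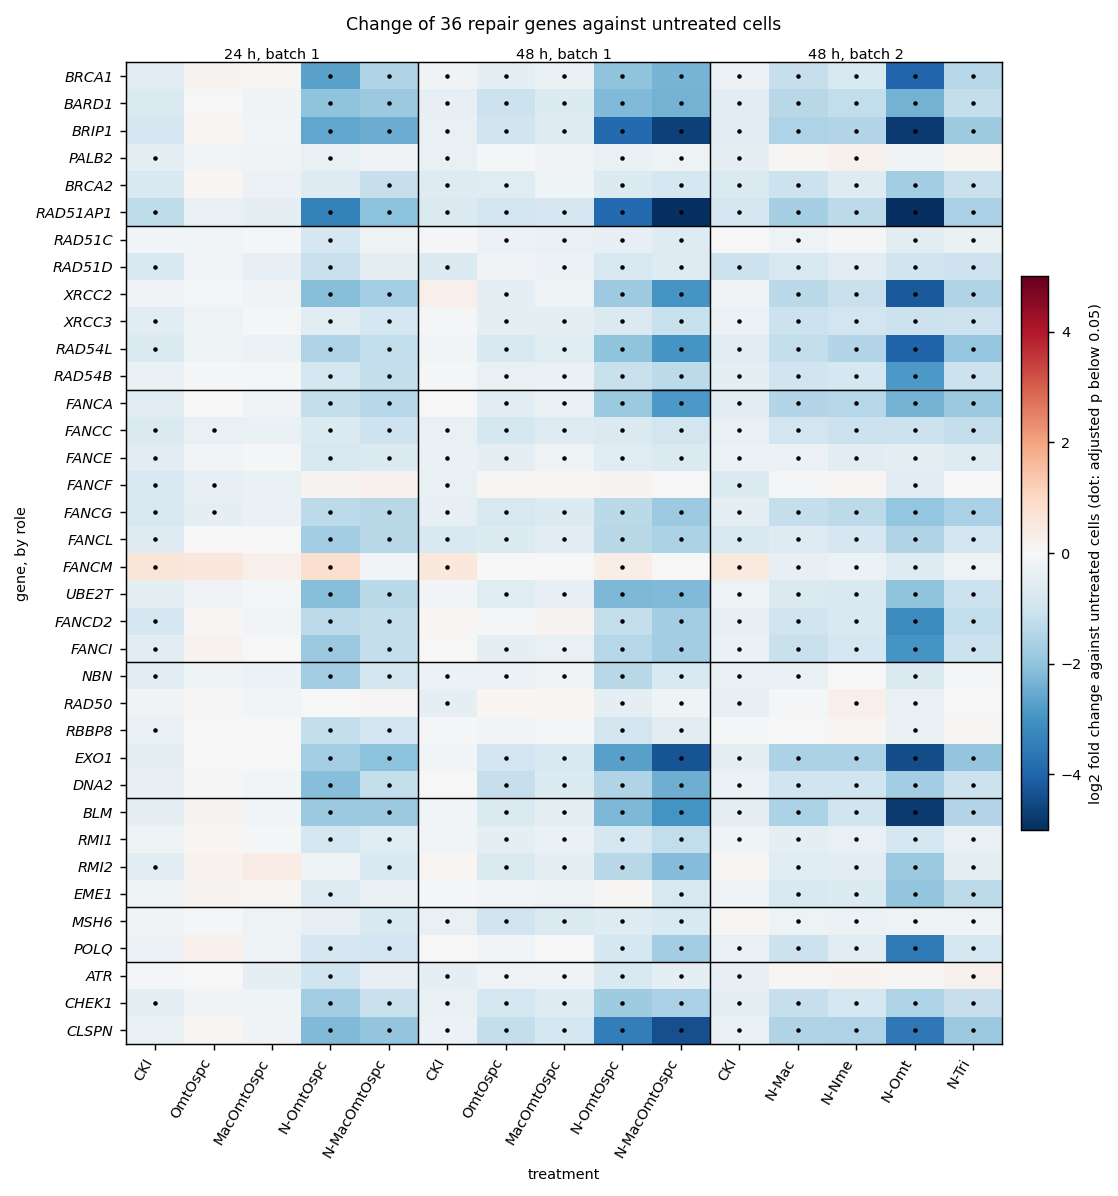
Rows are the 36 members by role and columns the 15 treated groups, with black lines between roles and between times and batches. Colour is the log2 fold change against untreated cells and a dot marks an adjusted p below 0.05. The darkest blues stand in the N-MacOmtOspc column at 48 h and the N-Omt column, down to -5.02 and -4.97 for RAD51AP1.

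The mixtures show how these genes changed when parts of CKI were given alone or removed. At 24 h the pair alone (OmtOspc) called 3 members lower and 0 higher, FANCC, FANCF and FANCG, against 7.72% and 9.03% of all genes, and the member median was -0.02. With macrozamin added (MacOmtOspc) 0 were called in either direction, against 4.84% of all genes lower and 5.61% higher, and 5 had an unadjusted p below 0.05. With 1 library left out OmtOspc gave 0 to 3 calls, 0 without OmtOspc replicate 3 and 1 without any 1 of the untreated libraries. Without the 3 libraries that stood apart 5 members were lower with OmtOspc, where 1592 of all genes were, and 5 were lower and 1 higher with MacOmtOspc, where 1499 and 1609 were. CKI without the pair (N-OmtOspc) called 30 lower and 1 higher, against 30.9% and 31.1% of all genes, with a member median of -1.19. CKI without all 3 (N-MacOmtOspc) called 28 lower and 0 higher, against 21.8% and 23.2% of all genes, with a median of -1.12. Without the 3 libraries it called 31 lower, where 4115 of all genes were lower against 3308 in the main fit, and the median was -1.37. Scaling by library size alone moved the median of all genes from -0.01 to -0.31 in N-OmtOspc at 24 h, where the member median became -1.5.

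At 48 h in batch 1 every mixture called most members lower. OmtOspc called 27 lower and 0 higher (30.3% and 30.6% of all genes, median -0.49) and MacOmtOspc 26 lower and 0 higher (27.3% and 28%, median -0.37). N-OmtOspc called 33 lower and 1 higher (38.1% and 40.1%, median -1.27), and N-MacOmtOspc 34 lower and 0 higher (34.2% and 38.7%, median -1.61). At least 4-fold falls were counted in 9 members with N-OmtOspc and 13 with N-MacOmtOspc, and in 0 with OmtOspc, MacOmtOspc or CKI. In batch 2, N-Mac called 31 lower and 0 higher (33.2% and 33.3%, median -0.98) and N-Nme 29 lower and 2 higher (32.9% and 32.2%, median -0.78). N-Tri called 30 lower and 1 higher (34.6% and 32%, median -1.07). N-Omt called 34 lower and 0 higher (37.5% and 36.1%, median -1.78), and at least 4-fold falls were counted in 15 members with N-Omt and in 0 with the other 3 removals. The share of all genes with falls of that size was not counted in either batch. All these comparisons share the untreated libraries of their time and batch.

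Set against CKI itself, the mixtures fell on both sides at 24 h. OmtOspc was higher than CKI in 4 members and lower in 0, RAD51AP1 among the former with 0.91 (SE 0.24), where 4.47% of all genes were higher and 4.02% lower. MacOmtOspc was higher in 8 and lower in 0 (6.02% and 5.57% of all genes), and the 8 included 4 Fanconi core subunits beside FANCL. Both counts depend on the libraries and the scaling. With 1 library left out OmtOspc gave 1 to 6 calls, with 1 or 2 without any 1 CKI library or OmtOspc replicate 2, and MacOmtOspc gave 2 to 5, below the count of 8 whichever library was left out. Library sizes alone gave 2 and 3 calls, and the fit without the 3 libraries that stood apart gave 6 and 11, all higher. Of all genes 535 and 687 were higher with library sizes alone and 905 and 1157 without the 3 libraries, against 679 and 915 in the main fit.

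N-OmtOspc was higher than CKI in 1 member and lower in 22 at 24 h (29.2% and 29.5%), and RAD51AP1 and BRCA1 had the largest differences, -2.12 (SE 0.27) and -2.1 (SE 0.33). XRCC2 differed from CKI by -1.96 (SE 0.41). With library sizes alone 30 members were lower and the member median went from -0.69 to -1.05, while over all genes the lower calls went from 4487 to 6623 and the higher calls from 4435 to 2745. N-MacOmtOspc was higher in 1 and lower in 19 (17.6% and 18.1%), and the higher member was FANCF in both. Without the 3 libraries 27 were lower and the median went from -0.58 to -0.82, while the lower calls over all genes went from 2746 to 3455. In place of these 20 calls, 13 were made without N-MacOmtOspc replicate 1 or replicate 3, and 5 in a fit of these 2 groups alone.

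At 48 h more members were lower than CKI than higher in all 8 mixtures. In batch 1, OmtOspc was higher in 5 and lower in 22 (29.4% and 26.3% of all genes) and MacOmtOspc higher in 5 and lower in 20 (27.8% and 23.6%). N-OmtOspc was higher in 1 and lower in 29 (38.6% and 36%), and N-MacOmtOspc higher in 2 and lower in 30 (37.6% and 32.2%). RAD51AP1, BRIP1 and EXO1 had the largest differences, -4.28 (SE 0.18), -4.27 (SE 0.18) and -4.19 (SE 0.14), all with N-MacOmtOspc. In batch 2, N-Mac was higher in 4 and lower in 26 (32.1% and 31.1%) and N-Nme higher in 7 and lower in 25 (33.1% and 32.3%). N-Omt was higher in 2 and lower in 31 (35.1% and 35.9%) and N-Tri higher in 6 and lower in 27 (32.2% and 33.3%). The members higher than CKI were mainly PALB2, FANCF, RAD50 and ATR: ATR was higher in all 4 removals of batch 2, by 0.48 to 0.65, and FANCF in 3, the exception being N-Omt. The largest differences were those of BLM (-4.32, SE 0.17), BRIP1 (-4.21, SE 0.18) and RAD51AP1 (-4.14, SE 0.18) with N-Omt.

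Macrozamin is the difference in 3 pairs of treatments. CKI and N-Mac, the pair with all other components present, are compared above, with 4 members higher and 26 lower when macrozamin was removed and a median of -0.59. MacOmtOspc and OmtOspc did not differ in any member at 24 h, where 0% of all genes were called higher and 0% lower and 1 member had an unadjusted p below 0.05. At 48 h MacOmtOspc was higher in 5 members and lower in 0 (2.61% and 0.989% of all genes): BARD1, DNA2, MSH6, CHEK1 and CLSPN, by 0.22 to 0.47. Leaving out any 1 of the 6 libraries left 0 to 3 calls, 0 without OmtOspc replicate 1, and RLE scaling and library sizes alone gave 3 and 2. Of all genes 378 and 319 were higher under these scalings, against 415 in the main fit. In the remaining pair, N-OmtOspc was higher than N-MacOmtOspc in 20 members and lower in 4 at 48 h (25.3% and 29.1%). EXO1 differed most, by 1.61 (SE 0.19), then XRCC2 by 1.14 (SE 0.23) and RAD51AP1 by 1.13 (SE 0.26), and the 4 lower members were NBN, RBBP8, ATR and RAD50. At 24 h the same pair gave 3 higher and 10 lower (23.8% and 23.8%), so the lower calls were near the share over all genes. Without the libraries that stood apart 11 members were higher and 5 lower, where 4141 of all genes were higher and 3853 lower, and the member median went from -0.18 to 0.14.

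Whether the CKI effect differs between times was tested within batch 1. No member was called by edgeR's test of the interaction (0.391% of all genes were), and 11 had an unadjusted p below 0.05. The member median of the 48 h effect minus the 24 h effect was 0.36, and FANCD2 had the largest difference, 0.94 (SE 0.29, adjusted p = 0.18). Without the 3 libraries 2 members were called, with differences above 0, where 95 of all genes were called above 0 and 91 below. Between batches at 48 h, 5 members were called (8.9% of all genes).

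Of 37 other recombination and Fanconi genes, 6 were called lower and 2 higher with CKI at 24 h and 14 lower and 12 higher at 48 h, with medians of -0.11 and -0.03. Of all genes 14.8% and 15.3% were lower and higher at 24 h and 35.7% and 33% at 48 h, so the shares at 48 h were near those of all genes. The meiotic recombination factor MND1 fell by -1.14 (SE 0.2) and -0.84 (SE 0.084) at 24 and 48 h, and USP1, which removes the mark from FANCD2, by -0.75 (SE 0.18) and -0.81 (SE 0.048). SFR1 and SWI5, which form a complex that assists strand exchange, rose by 0.65 (SE 0.14) and 1.16 (SE 0.2) at 24 h and by 1.11 (SE 0.065) and 0.83 (SE 0.073) at 48 h. Of 16 other checkpoint and damage signalling genes 15 were tested, and 6 were lower and 6 higher at 48 h. TIPIN (-0.78, SE 0.085) and H2AFX (-0.75, SE 0.063) fell, and RAD1 (0.3, SE 0.038) and RNF168 (0.41, SE 0.07) rose. Of 6 other mismatch repair genes 5 were lower and 0 higher at 48 h, MLH3 (-0.41, SE 0.071) among them.

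The 14 genes of classical end joining, the route that joins breaks without a sister, had medians near 0. At 48 h with CKI 5 were lower and 2 higher (median -0.09), and with N-Omt 6 were lower and 6 higher (median -0.07), where the 36 members had a median of -1.78. The share lower with CKI was that of all genes, 35.7%, and the shares with N-Omt were near the 37.5% and 36.1% of all genes. With CKI the median of the other recombination and Fanconi genes given above was also near 0, so such a median was not particular to end joining. XRCC5, the larger Ku subunit, fell by -0.53 (SE 0.039) and PRKDC by -0.36 (SE 0.05) with CKI at 48 h, and LIG4 rose by 0.37 (SE 0.071) and TP53BP1 by 0.21 (SE 0.046). Of 20 p53 target and damage response genes, 10 were lower and 7 higher with CKI at 48 h, the latter near the 33% of all genes. CDKN1A, the inhibitor of cyclin-dependent kinases, rose by 1.01 (SE 0.049) and ZMAT3 by 0.59 (SE 0.051), and CCNG1 fell by -0.83 (SE 0.051) and FDXR by -0.74 (SE 0.079).

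Most cell cycle genes were lower in the same groups. Of 17 S phase genes, 12 were lower and 0 higher with CKI at 24 h and 14 lower and 2 higher at 48 h, with medians of -0.91 and -0.61. TYMS (-1.22, SE 0.056) and MCM6 (-0.94, SE 0.051) fell most at 48 h, and CCNE1 (0.32, SE 0.068) and E2F1 (0.25, SE 0.065) rose. Of 16 G2 and mitosis genes, 13 were lower at 24 h and 16 at 48 h, with medians of -1.26 and -1.3, led by PLK1 (-2.06, SE 0.045) and CDC20 (-1.98, SE 0.055). With N-Omt the medians were -2.27 for the S phase genes and -4.03 for the G2 and mitosis genes, and with N-Nme, the removal with the smallest member median, -1.91 and -2.03. OmtOspc at 24 h, where 3 members were called, had medians of -0.27 and -0.51. How far the repair genes follow the share of cycling cells was not tested.

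**Figure D4:**
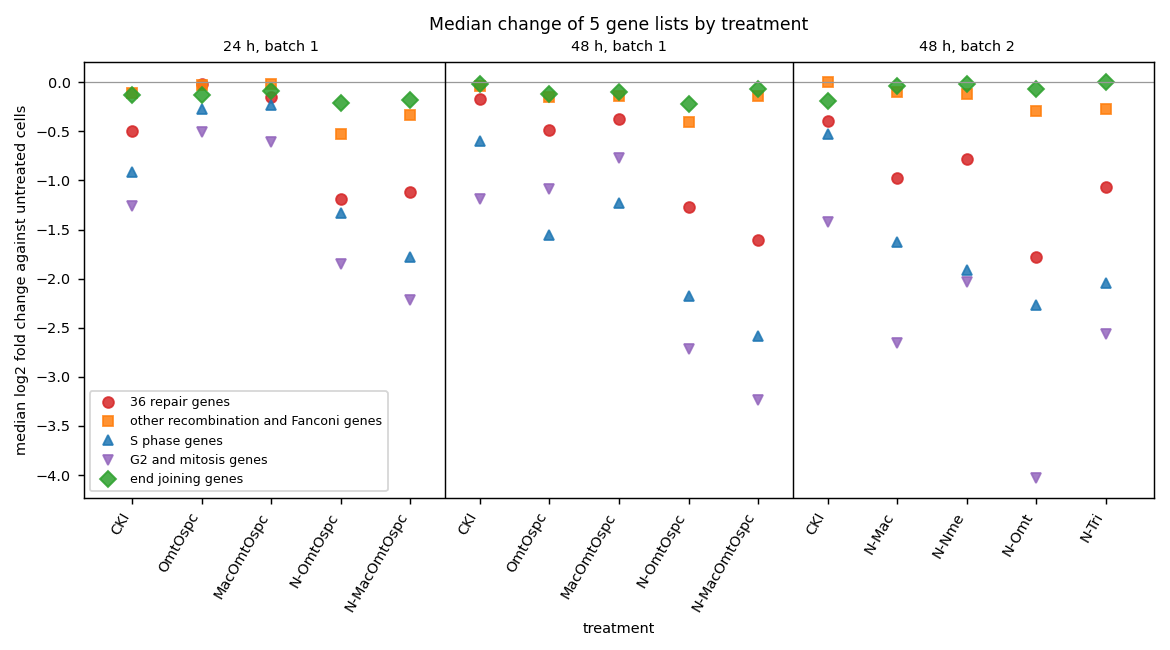
Each symbol is the median log2 fold change of 1 gene list against untreated cells, for the 15 treated groups in the order of time and batch. The end joining genes stay between -0.22 and 0, the G2 and mitosis genes reach -4.03 with N-Omt, and the members lie between these lists in every group except OmtOspc at 24 h.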

How the data were processed

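The authors deposited raw counts of reads per gene for all 54 libraries, without normalization. Per the submitters' processing notes, FastQC 0.11.4, Trim Galore 0.3.7, STAR 2.5.3a, Subread 1.5.2 with featureCounts, edgeR 3.22.3 and the hg19 genome were named, with no order or settings. Counts per gene on a stranded protocol leave overlapping or near-identical genes uncertain. Here edgeR 4.0.16 in R 4.3.3 was used: filterByExpr by group, TMM scaling, and quasi-likelihood fits of the 18 libraries at 24 h, the 36 at 48 h and the 36 of batch 1, with 1 coefficient per treatment, time and batch. Genes were called at a Benjamini-Hochberg adjusted p below 0.05 over all genes tested. DESeq2 1.42.0 was an alternative. The scripts were tested on simulated data. No 2 libraries agreed within sampling noise. The p-values measure the spread between replicates whose separation the labels do not detail.

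Members and lists were chosen with earlier results of these data known. Members described in every library were the 2 with the largest mean change over CKI in each of 7 role groups, those called in opposite directions among the 15 comparisons, and up to 3 with the largest difference from CKI per time and batch. Of other lists, the 2 largest rises and falls called at 48 h are named. Results of 2 genes that this rule names are not reported here. BARD1, FANCD2, FANCI and other members given briefly were chosen after their values were seen. The E2F letters were shortened after the longer form had been searched. Sequences are RefSeq's, GRCh38.p14. Other scalings (RLE, library sizes alone), no filter, the groups compared alone, a replicate block and left-out replicates were tried.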

Additional observations from a re-analysis of the deposited data

Results flagged for a closer look

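In 5 members the effect of CKI at 48 h differed between the batches, by edgeR's test of the interaction with Benjamini-Hochberg adjustment over all genes, against 8.9% of all genes called. With 1 library left out, 2 to 7 members were called. The effect in batch 2 minus that in batch 1 was -0.47 for RAD54L (adjusted p = 0.024), -0.53 for FANCA (adjusted p = 0.0018), -0.5 for FANCD2 (adjusted p = 0.013) and -0.32 for FANCI (adjusted p = 0.04), and 0.4 for MSH6 (adjusted p = 0.0068). RAD54L changed by -0.12 in batch 1 and -0.58 in batch 2, FANCA by 0.01 and -0.52, FANCD2 by 0.08 and -0.42 and FANCI by -0.03 and -0.35, while MSH6 changed by -0.36 and 0.04. The 6 untreated libraries also differ between the batches, with a member median of 0.2 on the log2 scale for batch 2 minus batch 1.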

How the results depend on the processing

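Scaling, filter, tool, samples and left-out libraries were changed 1 at a time. With CKI at 24 h, 17 members were called; the count was 26 when only the CKI and untreated libraries were fitted and 7 to 13 when 1 library was left out. Of the 29 called at 48 h, 19 were called in batch 1 alone. The interaction of CKI with time called 4 members in a fit of the groups compared and 2 without the 3 libraries that stood apart, and that with batch called 2 to 7 when 1 library was left out. Without the 3 libraries the interaction with time called 95 of all genes above 0 and 91 below, against 28 and 34 in the main fit. Calls over all genes were not counted in the fits of the groups compared or with 1 library left out. Same-numbered replicates did not as a rule deviate together, with a correlation above 0.1 in 17 of 45 pairs at 24 h. At 48 h it was above 0.1 in 5 of 45 pairs in batch 1 and 1 of 45 in batch 2. With 3 libraries per group this cannot show whether the numbers pair the samples. A replicate block gave 18 calls at 24 h and 29 at 48 h with CKI. Library sizes alone moved the all-gene median to 0.09 with CKI at 48 h and the share of lower calls from 52% to 40.7%, and 12 and 23 members were called at 24 and 48 h. Signs turned for members near 0. At 48 h RAD51C was 0.09 and RBBP8 0.04 with library sizes alone, RAD51C 0.02 without the filter and in the groups compared, FANCA 0.01, FANCD2 0.08 and POLQ 0.03 in batch 1 alone, and RAD51C 0.03, XRCC2 -0.17 and MSH6 0.04 in batch 2 alone. With 1 library left out, XRCC2 ran from -0.26 to 0.02 at 24 h and from -0.03 to 0.12 at 48 h, and RAD51C from -0.04 to 0.02 at 48 h. Of all 1224 single-member values under an alternative, 1110 kept direction and call. The wider spread at 24 h limits what can be called there. In simulated data, with a wider spread set for 24 h, 76.5% of 2-fold changes were recovered, against 89.5% at 48 h. The 48 h comparison also held more libraries, so this gap cannot be laid to spread alone.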
